A study of Bos taurus with 24 samples.

Results

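The genes described here encode respiratory complexes II, III, IV and V, the electron carrier cytochrome c, and the factors that assemble these complexes. They were chosen by gene symbol alone, as every symbol of the SDH, SDHAF, UQCR, UQCC, CYC1, CYCS, nuclear COX, COA, SCO, SURF1, ATP5 and ATPAF series. Of the 11306 genes of the deposited table, 64 matched, namely 8 of complex II, 12 of complex III with cytochrome c, 26 of complex IV and 18 of complex V. All 64 passed the filter of a value over 0.1 FPKM (the fragments of a gene divided by its exon length and by the depth of the library, so that levels can be compared between genes) in at least 1 library. They comprised 40 subunits, 21 assembly factors, CYCS, and the ATP5S and ATP5SL genes that are named after complex V. Nuclear genes such as COX6C, COX7C and SURF1 fall under this choice but have no row under these symbols in the deposited table. Of 26 listed symbols of the mitochondrial genome, which itself encodes further subunits of these complexes, 0 were found there. These genes were therefore not analysed.

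RNA was sequenced from denuded oocytes of non-lactating, non-pregnant Angus-based crossbred Bos taurus beef cows that were 3 to 6 years old, aspirated from their follicles by ovum pick-up. Germinal vesicle (GV) and metaphase II (MII) oocytes were collected in May, taken as spring, and in July, taken as summer, which made 4 groups of 6 libraries. GV oocytes were taken without culture and MII oocytes after maturation in vitro inside their cumulus in a medium with FSH, serum and pyruvate, so meiotic stage and culture cannot be told apart. All groups shared the herd, the removal of cumulus cells with hyaluronidase, storage as snap-frozen pools, and a Smart-seq2 protocol that captures polyadenylated mRNA. According to the methods a library was a pool of 4 oocytes of 1 animal, whereas the sample labels speak of individual cells. Fewer cows than libraries were used, so by the methods some libraries share an animal, and the labels do not say which. The tests took the libraries as independent, and their p-values measure the spread between libraries and not between cows.

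The respiratory chain lies in the inner mitochondrial membrane. Complex II, succinate dehydrogenase, passes electrons from succinate to ubiquinone, complex III passes them from ubiquinol to cytochrome c, and complex IV, cytochrome c oxidase, hands them to oxygen. Complexes III and IV pump protons as they do so, and complex V, the ATP synthase, lets the protons flow back and makes ATP. Apart from complex II, each of these enzymes joins subunits encoded in the mitochondrial genome to subunits encoded in the nucleus, and dedicated factors insert their copper, haem and iron-sulfur groups. The mammalian oocyte draws its ATP mainly from oxidative phosphorylation with pyruvate supplied by the cumulus cells, and the mRNA of a fully grown oocyte is a store that is partly translated and partly degraded during maturation without new transcription.

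The values of every library summed to between 86768.1 and 86768.2 FPKM, so each level is a share of the library. FPKM alone do not give equal totals, so the values were rescaled by a step that is not described in the sources used here, and they are called FPKM here because the methods of the study name that unit. By the methods each pool held 4 oocytes, and a share of the library does not give the amount of RNA per oocyte. The amount of an mRNA and how well it was captured as polyadenylated mRNA cannot be told apart. Genes said to fall or rise did so in their share of the library. Sequencing depth relative to spring GV replicate 1, estimated from the steps between low values, was lowest in replicate 6 of spring GV (0.0565), replicate 6 of spring MII (0.149) and replicate 2 of summer GV (0.393), highest in replicates 3 and 5 of summer GV (2.19 and 6.51), and 0.542 to 1.06 elsewhere. The 3 shallow libraries are named wherever they decide a result. Of 13 oocyte marker genes in the table, 10 exceeded 1 FPKM in all 24 libraries. Of 24 markers of cumulus and granulosa cells, 11 exceeded 1 FPKM in no library, among them FSHR and CYP19A1. Another 2, STAR and KRT8, exceeded it in all 24 libraries. In the highest GV library KRT18 reached 392 FPKM and VIM 75.7 FPKM. The summed level of the 24 markers was 38.4 to 590.6 FPKM in GV libraries of spring and 34.3 to 126.06 FPKM in those of summer, and 35.3 to 163.2 FPKM and 27.4 to 85.9 FPKM in the MII libraries, highest in replicate 6 of spring GV, and its part in the results below was not tested.

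The 64 genes took up a larger mean share of the library total in GV oocytes than in MII oocytes. Their summed level was 2.73% ± 0.585 (SD, n = 6) of the library total for GV oocytes of spring and 2.82% ± 0.453 for those of summer, and 1.73% ± 0.377 and 1.90% ± 0.324 for the MII oocytes of these seasons. The GV libraries ranged from 1.93% to 3.73% and the MII libraries from 1.33% to 2.44%, so the stages overlapped. Without the 3 shallow libraries the 10 GV libraries lay between 2.53% and 3.73% and the 11 MII libraries between 1.48% and 2.44%, with no overlap.

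Levels within a complex differed widely. Over the 24 libraries, the mean level was over 100 FPKM for 4 genes, between 10 and 100 FPKM for 29, between 1 and 10 FPKM for 17 and under 1 FPKM for 14. The 4 were UQCRQ, COX8A, COX6B1 and COX6A1, small accessory subunits of complexes III and IV. Among the subunits of complex III, UQCRQ averaged 240.3 FPKM and UQCRC2, a core protein of the complex, 0.945 FPKM, a ratio of 254. The subunits of complex II had the lowest median of any complex, 1.03 FPKM. They ranged from SDHA, the catalytic flavoprotein, at 0.384 FPKM to the membrane anchor SDHD at 1.58 FPKM. The lowest single subunit was COX7B2 of complex IV, at 0.0439 FPKM. In complex V the subunits ranged from ATP5B, the catalytic beta subunit, at 7.67 FPKM to ATP5J, a subunit of the stalk, at 88.4 FPKM, a ratio of 11.5. The 7 genes at under 0.2 FPKM were SDHAF4, UQCC, COX10, COX15, COX18, SCO1 and COX7B2.

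**Figure D1:**
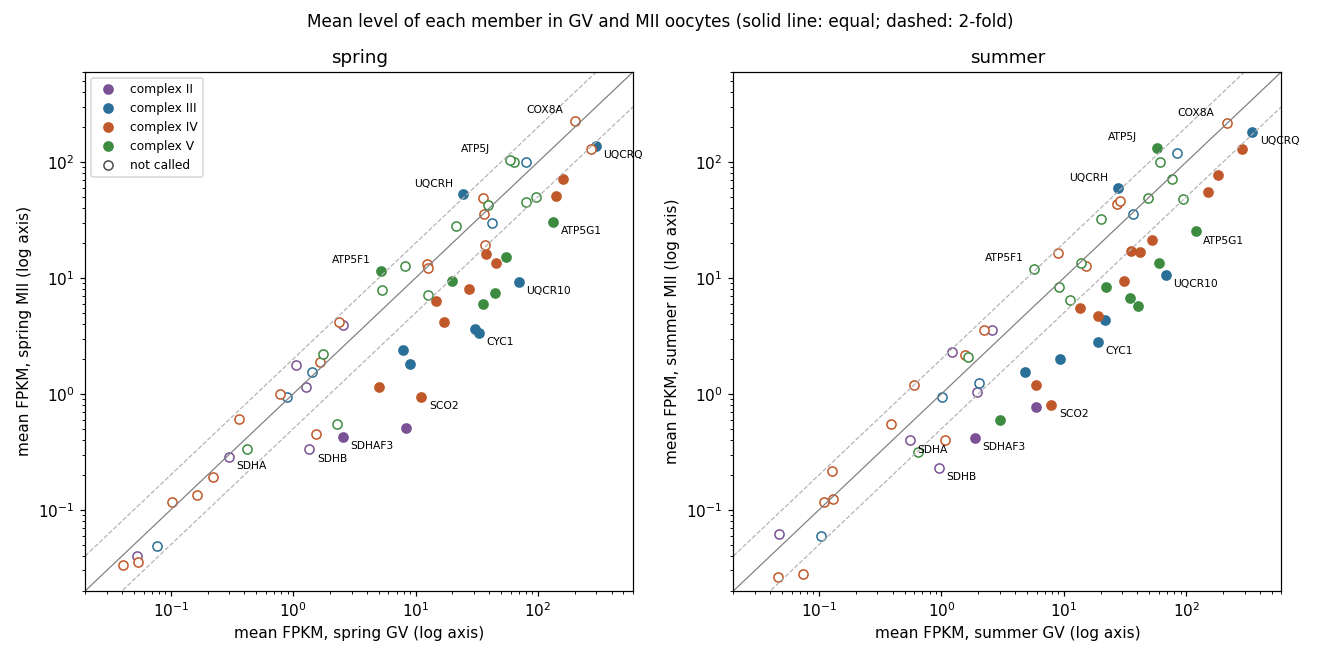
Mean level of each of the 64 genes in GV (x axis) and MII oocytes (y axis) in FPKM on log axes, spring on the left and summer on the right, coloured by complex and filled where the change was called. Most filled points lie below the lower dashed line, at a 2-fold lower level in MII, while UQCRH lies just above the upper one, at 24.5 FPKM in spring GV and 52.6 FPKM in spring MII oocytes.

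The order of the levels was kept between seasons and changed somewhat between stages. Across the 64 genes, Spearman's correlation of the group means was 0.992 between spring and summer GV oocytes and 0.996 between the seasons in MII oocytes. Between GV and MII oocytes it was 0.910 in spring and 0.920 in summer. These are descriptions across genes, which are not independent replicates. The 5 highest genes were UQCRQ, COX6B1, COX8A, COX6A1 and COX5B in GV oocytes of either season, where they made up 45.2% and 48.4% of the summed level in spring and summer. In MII oocytes COX8A ranked highest, followed by UQCRQ, and ATP5J and CYCS had moved into the first 5, which made up 46.6% and 47.4%. Between libraries of a group, the coefficient of variation of the 50 genes with a mean of at least 1 FPKM had a median of 39.9% (spring) and 28.8% (summer) for GV oocytes, and of 37.4% and 34.6% for MII oocytes.

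The first comparison asked how the members differed between MII and GV oocytes of the same season. A gene was called at an unadjusted limma p under 0.05 and a fold change over 2 on the log2(FPKM + 1) scale, which understates the change of low genes. In spring, 22 of the 64 genes were called lower in MII oocytes and 2 higher, where 8.25% and 3.57% of all 9526 genes tested were called lower and higher. In summer, 25 were called lower and 2 higher, against 9.26% and 2.2% of all genes. In both seasons 23 were called, all in the same direction, with 22 lower and UQCRH alone higher. ATP5F1 was called higher in spring alone, and in summer alone ATP5J was called higher and ATPAF2, COA3 and COX6B1 lower, while 36 were called in neither season. A call in 1 season does not show a difference between the seasons, which is tested at the end.

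These counts depend on level, since no member with a mean under 1 FPKM was called. Among the 50 members with a mean of at least 1 FPKM, 22 were called lower in spring, against 20.7% of all genes at that level, and 25 in summer, against 23.2%. With an adjusted p under 0.05 and no limit on the fold, 26 members were lower and 3 higher in spring, against 14.7% and 9.45% of all genes, and 29 were lower and 7 higher in summer, against 23.1% and 7.67%. In spring 16 members had every MII library below every GV library and 2 had every MII library above, against 8.98% and 4.65% of all genes. In summer the numbers were 19 and 6, against 14.7% and 3.07%. The median log2 fold change of the 64 genes was -0.09 in spring and -0.30 in summer, and that of all genes -0.03 and -0.02. With quantile normalization the calls over all genes moved from 340 higher and 786 lower to 563 and 650 in spring, and from 210 and 882 to 490 and 669 in summer. The members were then called 2 higher and 19 lower in spring, and 4 higher and 19 lower in summer.

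**Figure D2:**
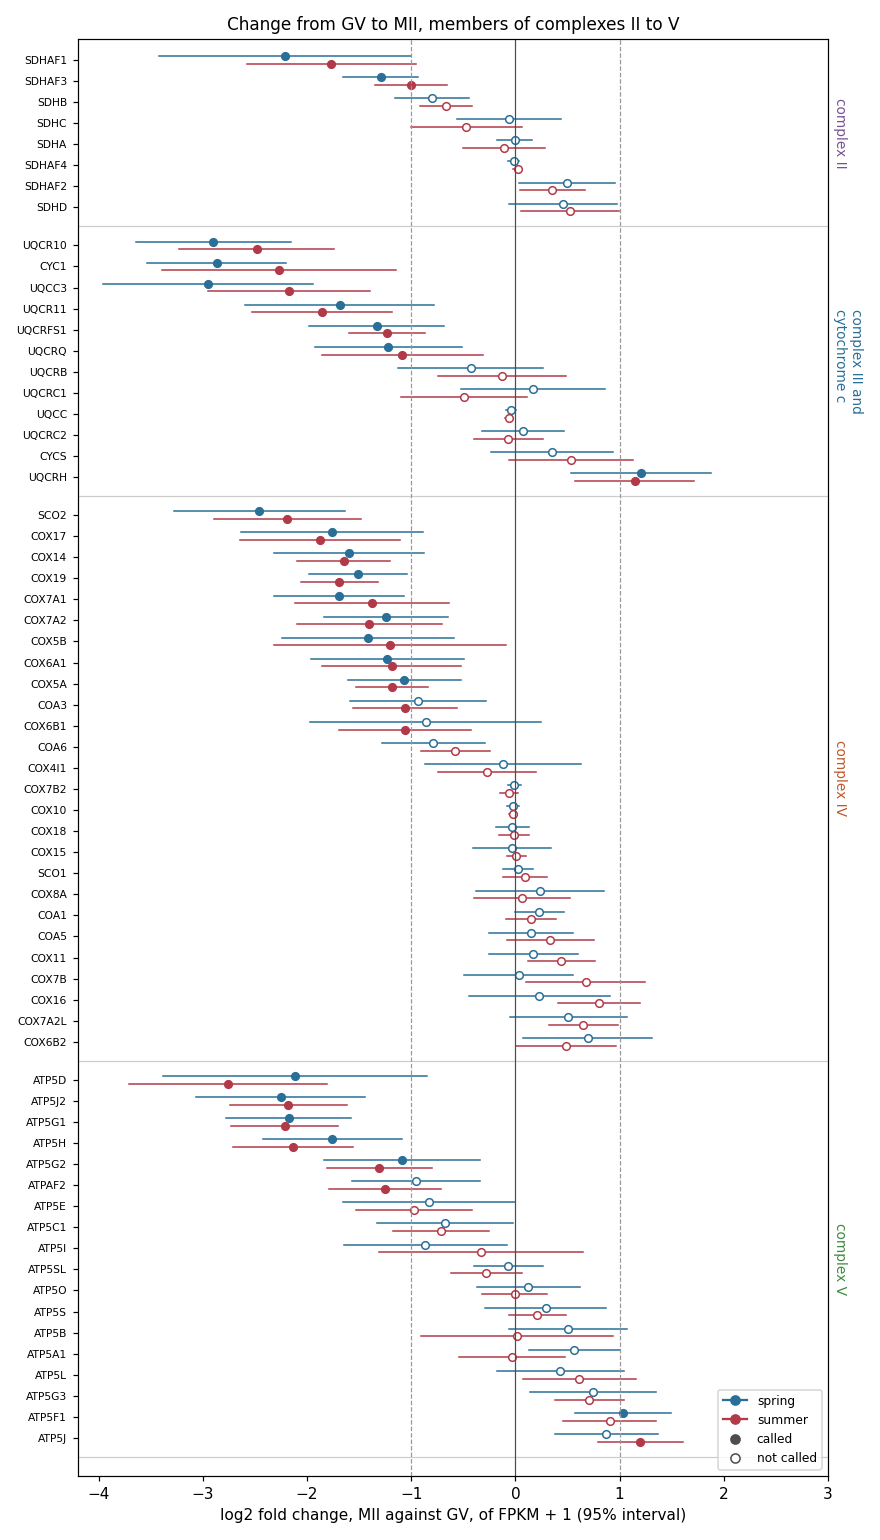
Log2 fold change of FPKM + 1 between MII and GV oocytes (x axis) for each of the 64 genes (y axis, by complex), with 95% intervals, spring in blue and summer in red, filled where called. The 2 seasons lie close together for most genes, 22 genes are filled on the left in both seasons, and UQCRH is filled on the right in both.

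Each complex had a lower mean sum in MII than in GV oocytes. Summed over its members, complex II went from 17.4 ± 6.85 FPKM (SD, n = 6) in spring GV to 8.42 ± 1.18 FPKM in spring MII oocytes, and from 15.1 ± 4.21 to 8.81 ± 1.21 FPKM in summer. Complex III with cytochrome c went from 594.8 ± 130.1 to 344.0 ± 95.6 FPKM in spring and from 620.04 ± 83.3 to 420.7 ± 105.0 FPKM in summer. Complex IV went from 1072 ± 314 to 667 ± 169 FPKM in spring and from 1130 ± 296 to 682 ± 101 FPKM in summer. Complex V went from 683.5 ± 109.9 to 482 ± 72.0 FPKM and from 679 ± 64.5 to 535 ± 103 FPKM. No test was made on these sums, and the GV and MII ranges overlapped for each complex in both seasons.

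**Figure D3:**
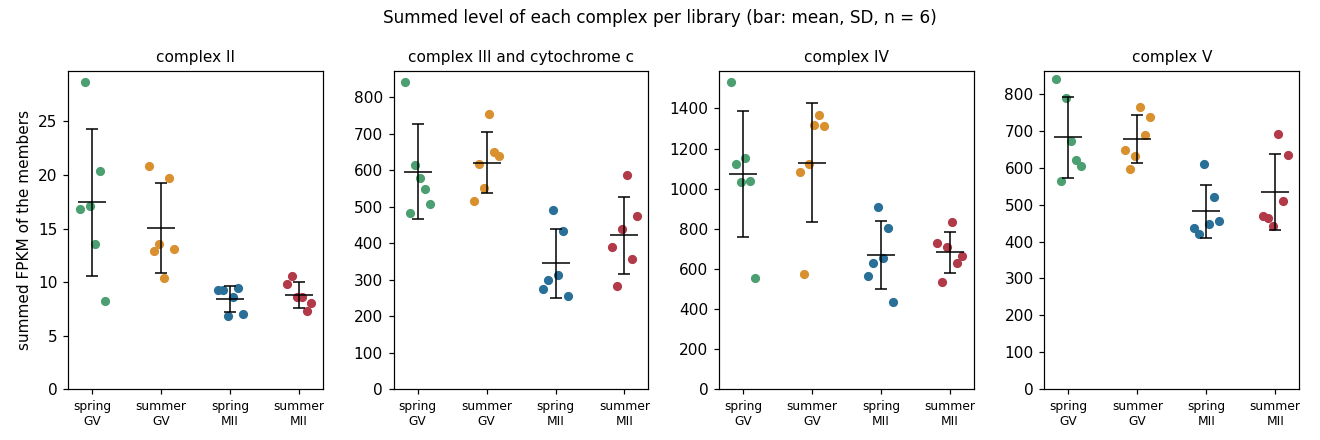
Summed FPKM of the members of each complex (y axis, from 0) in every library of the 4 groups (x axis), with the mean and SD of 6 libraries. The MII groups have the lower means in all 4 panels, and for complex IV the lowest GV points, at 555 FPKM in spring and 573 FPKM in summer, lie within the MII range.

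In complex II, 2 assembly factors fell and no subunit was called. Beside this count and those of the other complexes below stand the shares of all genes called lower. These were 8.25% in spring and 9.26% in summer, and 20.7% and 23.2% among genes with a mean of at least 1 FPKM. SDHAF1, which helps insert the iron-sulfur clusters of SDHB, ranged from 0.01 to 18.6 FPKM (median 7.53) in spring GV and 0.01 to 0.905 FPKM (median 0.648) in spring MII oocytes, where 0.01 FPKM is the lowest value of the table. Its mean was 16.4-fold lower in spring MII oocytes (log2 fold change -2.21, standard error 0.56, adjusted p = 0.0130) and 7.57-fold lower in summer (log2 fold change -1.77, standard error 0.37, adjusted p = 0.00360). The spring ranges overlapped through GV replicate 6, in which SDHAF1 is listed at 0.01 FPKM, and in summer every MII library was below every GV library. SDHAF3, another factor for SDHB, ranged from 1.80 to 3.92 FPKM (median 2.21) in spring GV and 0.342 to 0.572 FPKM (median 0.409) in spring MII oocytes without overlap, and was 6.05-fold lower (log2 fold change -1.29, standard error 0.17, adjusted p = 0.000264). In summer its log2 fold change was -1.01 at the limit of the call, and without any 1 of GV replicates 1, 4, 5 and 6 or MII replicates 1, 2, 5 and 6 it lay between -0.997 and -0.959 and the call was lost, as it was with quantile normalization, at -0.84.

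SDHB itself, the iron-sulfur subunit, was low, at 0.597 to 2.04 FPKM (median 1.43) in GV and 0.0989 to 0.501 FPKM (median 0.349) in MII oocytes of spring, and 0.592 to 1.20 FPKM (median 0.972) in GV and 0.116 to 0.505 FPKM (median 0.166) in MII oocytes of summer. The stages did not overlap in either season, and the ratio of the means was 4.09 in spring and 4.13 in summer. On the log2(FPKM + 1) scale its change was -0.80 and -0.67 (adjusted p = 0.00475 and 0.00106), under the limit of a call, and with a pseudocount of 0.1 it was -1.75 and -1.74 and called in both seasons. The other subunits gave no call, with log2 fold changes of -0.01 and -0.11 for SDHA, -0.06 and -0.47 for SDHC and 0.45 and 0.52 for SDHD in spring and summer. SDHAF2, which attaches the flavin to SDHA, had 2.54 ± 0.868 FPKM in spring GV and 3.93 ± 0.899 FPKM in spring MII oocytes, and its log2 fold change of 0.49 was not called (adjusted p = 0.105). SDHAF4 stayed at or under 0.113 FPKM in every library.

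In complex III, 5 of the 9 subunits fell in both seasons and 1 rose. CYC1, the haem-bearing cytochrome c1, ranged from 15.2 to 52.2 FPKM (median 29.4) in spring GV and 1.89 to 4.53 FPKM (median 3.38) in spring MII oocytes. Its mean was 9.87-fold lower (log2 fold change -2.87, standard error 0.31, adjusted p = 9.50e-05) with no overlap, and in summer, with overlap, 6.77-fold lower (log2 fold change -2.27, standard error 0.52, adjusted p = 0.00564). UQCRFS1, the Rieske iron-sulfur protein, was 3.26-fold lower in spring and 3.16-fold lower in summer (adjusted p = 0.00736 and 0.000188) without overlap in either season, and with quantile normalization its summer log2 fold change of -0.96 was not called. The core proteins UQCRC1 and UQCRC2 gave no call in either season, with log2 fold changes between -0.49 and 0.17.

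The small accessory subunits of complex III moved in opposite directions. UQCR10 ranged from 47.1 to 107 FPKM (median 63.9) in spring GV and 3.24 to 17.8 FPKM (median 7.87) in spring MII oocytes, and from 19.8 to 88.7 FPKM (median 74.5) in summer GV and 6.26 to 16.1 FPKM (median 10.3) in summer MII oocytes. Every MII library was below every GV library in both seasons, with a mean 7.54-fold and 6.44-fold lower (log2 fold changes -2.90 and -2.48, standard errors 0.34 and 0.34). UQCRH, the hinge protein that binds cytochrome c1 and helps dock cytochrome c, ranged from 9.48 to 49.3 FPKM (median 21.8) in spring GV and 42.2 to 65.8 FPKM (median 52.3) in spring MII oocytes, and from 11.4 to 35.8 FPKM (median 29.9) in summer GV and 46.1 to 70.0 FPKM (median 59.0) in summer MII oocytes. Its mean was 2.15-fold higher in spring (log2 fold change 1.21, standard error 0.31, adjusted p = 0.0140, exact permutation p = 0.00866) and 2.14-fold higher in summer (log2 fold change 1.14, standard error 0.26, adjusted p = 0.00572, exact permutation p = 0.00216, the smallest that permuting 6 and 6 libraries can give). The groups overlapped in spring and not in summer. The log2 fold change was 0.98 without spring GV replicate 6 and 0.92 without summer GV replicate 2, just under the limit of a call, and it was not below 0.92 in any alternative. The gene lies on chromosome 3 at 100391832 to 100401196 (UMD3.1, coordinates as deposited).

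UQCRQ, the highest of all members in GV oocytes, ranged from 242 to 499 FPKM (median 255) in spring GV and 78.2 to 286 FPKM (median 97.4) in spring MII oocytes, overlapping, and was 2.15-fold lower (log2 fold change -1.22, standard error 0.33, adjusted p = 0.0171). Its summer log2 fold change of -1.08 (adjusted p = 0.0352) fell to -0.99 without GV replicate 2, -0.83 without MII replicate 2 and -0.97 without MII replicate 5, and was then not called. UQCR11, named after its values were seen, was 5.05-fold and 4.66-fold lower, and UQCRB, the subunit next to the ubiquinone site, was not called. As a share of the summed FPKM of UQCRH, UQCRQ, UQCR10, UQCR11 and UQCRB, UQCRH made up 5.33% ± 1.43 (SD, n = 6) and 5.77% ± 1.92 in GV oocytes of spring and summer, and 24.8% ± 6.60 and 23.3% ± 9.18 in MII oocytes. No GV library was above 7.30% and no MII library below 13.2%.

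Among the assembly factors of complex III, UQCC3, which stabilises newly made cytochrome b, ranged from 19.8 to 60.4 FPKM (median 25.1) in spring GV and 0.01 to 6.35 FPKM (median 3.91) in spring MII oocytes. It was 8.39-fold lower in spring and 5.08-fold lower in summer (log2 fold changes -2.95 and -2.18, adjusted p = 0.000932 and 0.000709), without overlap in either season. Its partner UQCC stayed at or under 0.148 FPKM in all libraries. CYCS, cytochrome c, which carries electrons from complex III to complex IV, had 79.8 ± 28.1 FPKM in spring GV and 101 ± 27.0 FPKM in spring MII oocytes, and 83.7 ± 25.0 FPKM and 121 ± 33.1 FPKM in summer. Its log2 fold change of 0.35 (95% interval -0.23 to 0.94) in spring and 0.53 (-0.06 to 1.12) in summer was not called.

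In complex IV, 5 of the 12 nuclear subunits in the table fell in spring and 6 in summer, and none rose. COX5A, which with COX4I1 joins the COX1 subunit early in assembly, ranged from 9.29 to 21.2 FPKM (median 13.1) in spring GV and 4.34 to 8.44 FPKM (median 6.31) in spring MII oocytes. The stages did not overlap, and it was 2.29-fold lower in spring and 2.49-fold lower in summer (log2 fold changes -1.06 and -1.18, adjusted p = 0.00891 and 0.000171). In spring the call was lost without GV replicate 4, GV replicate 6 or MII replicate 1, at -0.98, -0.95 and -0.98, without both shallow spring libraries, at -0.90, and with quantile normalization in both seasons, at -0.85 and -0.87. COX5B, named after its values were seen, was 2.75-fold and 2.73-fold lower, and its summer call rested on a log2 fold change of -1.20 with an adjusted p of 0.0926. That call was lost with quantile normalization, with median-of-ratios scaling and without any 1 of 8 libraries, namely summer GV replicates 1, 3, 4, 5 and 6 and summer MII replicates 2, 5 and 6, where the change lay between -1.17 and -1.05. COX6A1 was 2.22-fold and 2.37-fold lower (adjusted p = 0.0194 and 0.0118), with overlap in both seasons, and at -0.996 without spring MII replicate 6 it was just short of a call.

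COX6B1, a subunit that faces the intermembrane space, ranged from 42.6 to 513 FPKM (median 280.4) in spring GV and 49.7 to 174 FPKM (median 130.1) in spring MII oocytes, overlapping through GV replicate 6. It was not called in spring (log2 fold change -0.86, standard error 0.51, adjusted p = 0.231), but was called at -1.33 without that library. In summer it was called (log2 fold change -1.06, standard error 0.29, adjusted p = 0.0161), and without GV replicate 4, 5 or 6 or MII replicate 2 it lay between -0.98 and -0.95 and was not. COX8A and COX4I1, the largest nuclear subunit, showed no call, with log2 fold changes of 0.24 and 0.06 for COX8A and -0.12 and -0.27 for COX4I1. The table places COX6B1 and COX8A on chromosomes 5 and 20 at loci of only 482 and 476 bases, and their values are uncertain where near-identical copies share reads, since how the counting split such reads is not given in the sources used here.

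Subunits of complex IV with paralogs allowed the balance between related genes to be read. COX7A1, best known from heart and skeletal muscle, ranged from 33.3 to 69.2 FPKM (median 38.7) in spring GV and 7.08 to 23.5 FPKM (median 11.7) in spring MII oocytes without overlap, and was 3.32-fold lower (log2 fold change -1.69, standard error 0.29, adjusted p = 0.00143). The widely expressed COX7A2 was 2.36-fold lower in spring and 2.48-fold lower in summer (adjusted p = 0.00657 and 0.00585), with a spring change of -0.97 and no call under quantile normalization. COX7A1 and COX7A2 were of like level, COX7A1 making up 54.0% ± 5.46, 43.8% ± 5.17, 46.0% ± 6.09 and 44.0% ± 7.64 (SD, n = 6) of their sum in GV oocytes of spring, GV oocytes of summer, and MII oocytes of the 2 seasons. COX7A2L, a relative that joins complexes III and IV into supercomplexes, ranged from 20.3 to 33.1 FPKM (median 27.6) in summer GV and 38.5 to 49.8 FPKM (median 42.0) in summer MII oocytes without overlap, at a log2 fold change of 0.65 (adjusted p = 0.00672) that was under the limit of a call, and in spring the change was 0.51 (adjusted p = 0.166). Its share of the summed FPKM of COX7A1, COX7A2 and COX7A2L was 30.0% ± 7.74 in spring GV and 22.8% ± 3.47 in summer GV oocytes, and 62.9% ± 10.3 and 55.5% ± 11.9 in MII oocytes. The highest GV library was at 38.1% and the lowest MII library at 39.3%.

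The isoforms best known from testis were minor. COX6B2 made up 1.54% ± 1.83 (SD, n = 6) and 1.02% ± 0.920 of the sum of COX6B1 and COX6B2 in GV oocytes of spring and summer and 3.35% ± 1.02 and 2.80% ± 1.23 in MII oocytes, and its own log2 fold changes of 0.69 and 0.49 were not called. COX7B2 did not exceed 0.190 FPKM in any library, while COX7B, its widely expressed counterpart, averaged between 28.6 and 46.4 FPKM in the 4 groups and was not called.

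Of the 14 assembly factors of complex IV, 4 fell in spring and 5 in summer. SCO2, a copper chaperone for the COX2 subunit, ranged from 3.13 to 19.9 FPKM (median 12.4) in spring GV and 0.446 to 1.50 FPKM (median 0.744) in spring MII oocytes, and from 2.98 to 14.2 FPKM (median 7.56) in summer GV and 0.191 to 1.56 FPKM (median 0.662) in summer MII oocytes. No MII library reached the lowest GV library of its season, and the mean was 11.9-fold and 9.81-fold lower (log2 fold changes -2.46 and -2.19, adjusted p = 0.000814 and 0.000352). SCO1, the other chaperone for the same copper site, averaged between 0.102 and 0.215 FPKM and was not called. COX17, named after its values were seen and the donor of copper to SCO1 and SCO2, was 4.09-fold lower in spring and 4.09-fold lower in summer without overlap. COX19, a further protein of the copper pathway, ranged from 3.52 to 7.24 FPKM (median 4.88) in spring GV and 0.356 to 2.06 FPKM (median 1.02) in spring MII oocytes, and was 4.42-fold and 5.03-fold lower (adjusted p = 0.000517 and 2.53e-05). COX11, which serves the copper site of the COX1 subunit, was not called, at 0.602 ± 0.143 FPKM in summer GV and 1.20 ± 0.437 FPKM in summer MII oocytes (log2 fold change 0.44, standard error 0.15, adjusted p = 0.0389).

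COX14 and COA3 bind newly made COX1 and couple its synthesis to assembly. COX14 ranged from 9.14 to 35.3 FPKM (median 31.2) in spring GV and 5.19 to 14.1 FPKM (median 7.88) in spring MII oocytes, where GV replicate 6 alone overlapped, and was 3.38-fold and 3.29-fold lower (adjusted p = 0.00482 and 0.000104). COA3, named after its values were seen, had log2 fold changes of -0.94 in spring and -1.06 in summer. Its spring value was past the limit without GV replicate 6, at -1.10, and without MII replicate 1 or 3, at -1.05 and -1.004, and its summer call was lost without MII replicate 5 or 6, at -0.92 and -0.96, and with quantile normalization, at -0.77. COX16, a factor in the biogenesis of COX2, ranged from 7.26 to 11.9 FPKM (median 8.22) in summer GV and 12.8 to 23.9 FPKM (median 15.3) in summer MII oocytes without overlap, at a log2 fold change of 0.80 (adjusted p = 0.00564) that was not called except with quantile normalization, at 1.12. In spring its change was 0.23 (adjusted p = 0.591). The haem A factors COX10 and COX15 and the insertase COX18 averaged under 0.25 FPKM in each group and gave no call, and COA1 and COA5 gave none.

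In complex V, 5 of 15 subunits fell in both seasons. ATP5J2, the f subunit of the membrane part, ranged from 11.7 to 63.1 FPKM (median 33.4) in spring GV and 3.82 to 10.7 FPKM (median 5.12) in spring MII oocytes, and was 5.91-fold and 5.15-fold lower (log2 fold changes -2.25 and -2.18, adjusted p = 0.00126 and 7.41e-05). ATP5H, the d subunit of the peripheral stalk, ranged from 37.5 to 81.0 FPKM (median 58.6) in summer GV and 6.67 to 23.8 FPKM (median 12.4) in summer MII oocytes, and was 3.60-fold and 4.47-fold lower (adjusted p = 0.00183 and 0.000104). Neither gene overlapped between the stages in either season. ATP5D, the delta subunit of the rotor, named after its values were seen, was 6.10-fold and 6.98-fold lower. The assembly factor ATPAF2, which protects the free alpha subunit, was 4.15-fold lower in spring without a call (log2 fold change -0.96, standard error 0.28, adjusted p = 0.0273) and 4.97-fold lower in summer with one (log2 fold change -1.25, standard error 0.25, adjusted p = 0.00227). Without spring GV replicate 1, 3 or 6 its spring change was -1.06, -1.07 and -1.11 and was called.

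Other subunits of complex V stood higher in MII oocytes. ATP5J, coupling factor 6 of the peripheral stalk, ranged from 34.6 to 82.1 FPKM (median 59.3) in spring GV and 87.8 to 119.6 FPKM (median 108) in spring MII oocytes, and from 39.7 to 75.9 FPKM (median 56.5) in summer GV and 103 to 157 FPKM (median 136) in summer MII oocytes. Every MII library was above every GV library in both seasons, the mean was 1.78-fold and 2.30-fold higher, and the log2 fold change of 0.87 in spring was not called while that of 1.20 in summer was (adjusted p = 0.0153 and 0.000496). ATP5F1, the b subunit of the same stalk, ranged from 3.33 to 7.53 FPKM (median 5.39) in spring GV and 9.80 to 15.0 FPKM (median 10.9) in spring MII oocytes, again without overlap in either season. Its mean was 2.19-fold and 2.09-fold higher (log2 fold changes 1.03 and 0.91, adjusted p = 0.00484 and 0.00542). The spring call of ATP5F1 was lost with median-of-ratios scaling, at 0.88, and without GV replicate 1, GV replicate 5 or MII replicate 6, at 0.95, 0.94 and 0.96, and in summer it was called at 1.23 with quantile normalization. Within the same stalk ATP5H fell, and ATP5O, the subunit that ties the stalk to the catalytic head, had log2 fold changes of 0.13 and -0.01. ATP5A1, the alpha subunit of the catalytic head, had 8.20 ± 1.42 FPKM in spring GV and 12.8 ± 2.85 FPKM in spring MII oocytes (log2 fold change 0.57, standard error 0.20, adjusted p = 0.0563) and was not called in either season.

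The c subunit, of which a ring turns in the membrane, is made from 3 genes whose mature proteins are alike and whose import sequences differ. The genes lie on chromosome 19 (ATP5G1, 38253559 to 38255682), chromosome 5 (ATP5G2, 26535457 to 26539250) and chromosome 2 (ATP5G3, 21702150 to 21705267) of UMD3.1. ATP5G1 ranged from 108 to 154 FPKM (median 136) in spring GV and 11.9 to 42.9 FPKM (median 30.1) in spring MII oocytes, and from 69.6 to 134 FPKM (median 129.5) in summer GV and 17.5 to 35.2 FPKM (median 23.4) in summer MII oocytes. It was 4.37-fold and 4.73-fold lower without overlap (log2 fold change -2.18, standard error 0.28, adjusted p = 0.000244 in spring and -2.22, standard error 0.24, adjusted p = 3.75e-05 in summer). ATP5G2, the lowest of the 3, was 2.11-fold and 2.63-fold lower (log2 fold changes -1.09 and -1.31, adjusted p = 0.0377 and 0.00117), and its spring call was lost without GV replicate 3 or MII replicate 6, at -0.93 and -0.85, without both shallow spring libraries, at -0.82, and with quantile normalization in both seasons, at -0.83 and -0.99. ATP5G3 ranged from 37.1 to 126 FPKM (median 59.2) in spring GV and 75.4 to 120.3 FPKM (median 102) in spring MII oocytes, and from 53.9 to 70.1 FPKM (median 61.6) in summer GV and 77.7 to 128 FPKM (median 97.9) in summer MII oocytes. Its log2 fold changes of 0.75 and 0.71 (adjusted p = 0.0668 and 0.00396) were under the limit of a call, with overlap in spring and none in summer.

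The highest of the 3 was ATP5G3 in all 12 MII libraries and ATP5G1 in 11 of the 12 GV libraries. The exception was the shallow spring GV replicate 6, where ATP5G3 took 49.6% of their sum and ATP5G1 42.3%. ATP5G1 made up 62.2% ± 11.7 (SD, n = 6) of their summed FPKM in spring GV and 58.4% ± 6.02 in summer GV oocytes, and 21.7% ± 6.97 and 18.9% ± 5.82 in MII oocytes. ATP5G3 made up 28.6% ± 11.1 and 30.6% ± 6.29 in GV oocytes, and 71.8% ± 9.66 and 74.8% ± 7.09 in MII oocytes. Every GV library had an ATP5G1 share of at least 42.3% and every MII library one of at most 28.0%. The coding parts of the 3 genes resemble each other, and how the counting treated reads that match more than 1 of them is not given in the sources used here.

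**Figure D4:**
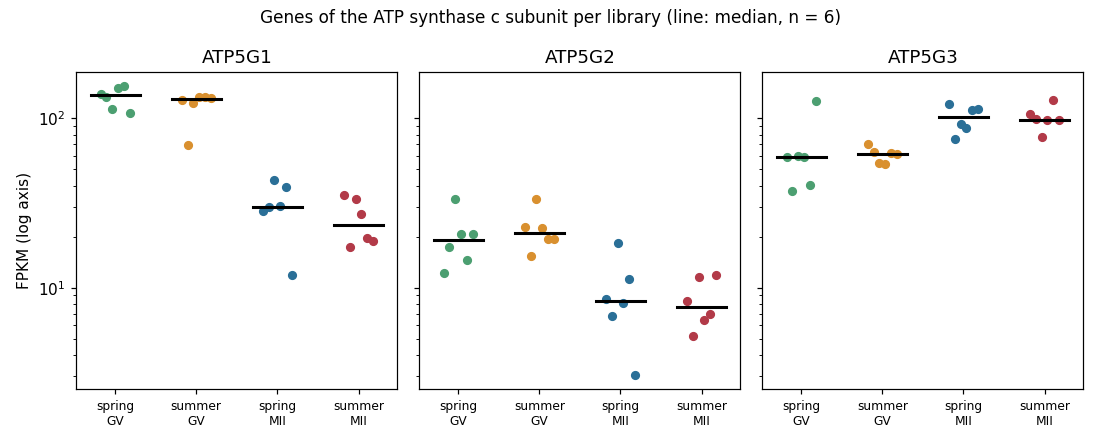
FPKM (log axis) of ATP5G1, ATP5G2 and ATP5G3 in each library of the 4 groups (x axis), with the median of 6 libraries as a line. ATP5G1 lies between 69.6 and 154 FPKM in GV oocytes and between 11.9 and 42.9 FPKM in MII oocytes, while the ATP5G3 medians are 59.2 and 61.6 FPKM in GV and 102 and 97.9 FPKM in MII oocytes.

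Of the 24 members called in spring, 18 were called in every alternative setting, and of the 27 called in summer also 18. The 14 called in every alternative in both seasons, all lower, were SDHAF1 of complex II, CYC1, UQCC3, UQCR10 and UQCR11 of complex III, COX14, COX17, COX19, COX7A1 and SCO2 of complex IV, and ATP5D, ATP5G1, ATP5H and ATP5J2 of complex V. How many of all genes were called in every alternative was not counted. Leaving out the 3 shallow libraries gave 24 member calls in spring and 26 in summer, against 1228 and 1195 over all 9526 genes tested.

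A property that the choice of genes did not use was the length of the locus. Across the 64 members, Spearman's correlation between the log2 fold change and the length of the locus in the deposited table was 0.438 in spring and 0.439 in summer, and across all 9526 genes it was 0.340 and 0.315. The correlation between locus length and mean level was -0.683 across the members and -0.351 across all genes. With a limit of 3000 bases, chosen after the values were seen, 12 of 18 members with a mean of at least 1 FPKM on shorter loci were called lower in spring and 14 in summer, against 10 and 11 of 32 on longer loci. The share of all genes on such short loci that were called lower was not counted. At a mean of at least 1 FPKM, the correlation of change and locus length was 0.450 in spring and 0.436 in summer across the members. Across all 3665 genes at that level it was 0.394 and 0.379. The members called higher, UQCRH, ATP5F1 and ATP5J, all had longer loci, of 9365, 16913 and 7318 bases. These are descriptions across genes that share libraries, and the part of length or level in the changes was not tested.

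Other genes of the same organelle are given for comparison as counts. Beside these counts and those of the next paragraph stand the shares over all 9526 genes tested. In spring 8.25% were called lower and 3.57% higher, and in summer 9.26% and 2.2%. Among all genes with a mean of at least 1 FPKM, 20.7% were called lower in spring and 23.2% in summer. Of 46 genes of complex I in the table, 17 were called lower and 2 higher in spring and 19 lower and 2 higher in summer, and of 77 genes of mitochondrial ribosomal proteins 31 and 35 were called lower and 0 and 1 higher. No test compared these groups with the members. Of 19 further genes of complexes III, IV and V with symbols outside the rule, 6 were called lower and 1 higher in spring, and 5 lower and 2 higher in summer. ATPIF1, the inhibitor of ATP hydrolysis by complex V, averaged 210.9 FPKM in spring GV and 47.2 FPKM in spring MII oocytes, and 175.9 and 45.1 FPKM in summer (log2 fold changes -2.11 and -1.92). BCS1L, which loads the Rieske protein into complex III, averaged 8.33 and 1.23 FPKM in spring and 7.38 and 1.21 FPKM in summer (-1.83 and -1.89). HIGD1A, a small protein associated with complexes III and IV, averaged 13.6 and 33.7 FPKM in spring and 12.5 and 36.4 FPKM in summer (1.29 and 1.45).

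CHCHD7 and C21H14orf2 were also called lower in both seasons, SMIM20 and USMG5 in spring alone and OXA1L in summer alone, and CMC1 was called higher in summer alone. Of 15 genes that shape the cristae or stabilise supercomplexes, APOO, PHB, PHB2 and PTPMT1 were called lower in both seasons and CHCHD2 higher in spring. PTPMT1, an enzyme of cardiolipin synthesis, averaged 14.9 FPKM in spring GV and 0.705 FPKM in spring MII oocytes (log2 fold change -3.11) and 11.05 and 0.757 FPKM in summer (-2.77). Of 18 regulators of mitochondrial gene expression that passed the filter, SSBP1, which binds single-stranded mitochondrial DNA, was called lower in both seasons (-2.33 and -2.38), MTERF3 higher in both (1.29 and 1.21) and TFB2M higher in summer (1.18). TFAM, NRF1 and PPARGC1A exceeded 1 FPKM in no library. Of 13 oocyte markers, 4 were called higher and 2 lower in spring, and 2 higher and 3 lower in summer. Among 19 cumulus and granulosa cell markers tested, HAS2 was called higher in MII oocytes of both seasons, at 0.297 FPKM in spring GV and 1.82 FPKM in spring MII oocytes, and no other was called.

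The second comparison asked whether these genes differed within a stage between the seasons of collection. Spring was May alone and summer July alone, so the heat of summer and the date of collection cannot be told apart. In GV oocytes none of the 64 members was called between summer and spring, where 0.0315% of all genes were, and none had an adjusted p under 0.05. At an unadjusted limma p under 0.05 there was 1 member, against 1.55% of all genes. This was ATP5A1, which ranged from 7.17 to 10.7 FPKM (median 7.53) in spring and 10.4 to 20.7 FPKM (median 12.1) in summer GV oocytes, with a mean of 8.20 ± 1.42 and 13.8 ± 3.98 FPKM (SD, n = 6). The groups overlapped slightly, and the log2 fold change was 0.66 (95% interval 0.20 to 1.11, adjusted p = 1, p by exact permutation = 0.00433). The next smallest p belonged to COX7A2, at 0.47 (-0.03 to 0.97), and to CYC1, at -0.95 (-2.02 to 0.12). CYC1 had 33.1 ± 15.5 FPKM in spring and 19.1 ± 12.9 FPKM in summer, with a wide spread, and was called at -1.14 without spring GV replicate 1 and at -1.21 without summer GV replicate 3.

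In MII oocytes no member was called between the seasons, against 0.042% of all genes. None passed an adjusted limit of 0.05, and 1 passed it unadjusted, against 2.11% of all genes. ATP5J ranged from 87.8 to 119.6 FPKM (median 108) in spring and 103 to 157 FPKM (median 136) in summer MII oocytes, overlapping, with a log2 fold change of 0.32 (95% interval 0.01 to 0.63, adjusted p = 1, p by exact permutation = 0.0260). SDHAF4 and COX16 followed, at 0.03 (-0.01 to 0.07) and 0.29 (-0.07 to 0.65). For every member the seasons overlapped in both stages.

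The intervals show how much of a seasonal change these libraries could leave unseen. In GV oocytes the log2 fold changes of the 64 members lay between -0.95 and 0.66, and for 49 of them the whole 95% interval was within a 2-fold change either way. In MII oocytes they lay between -0.44 and 0.46, and the interval was within 2-fold for 56. For the remaining 15 and 8 members a 2-fold difference in at least 1 direction lay within the interval. The median of the members was 0.04 in GV and 0.02 in MII oocytes, and that of all genes 0.01 and -0.01.

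**Figure D5:**
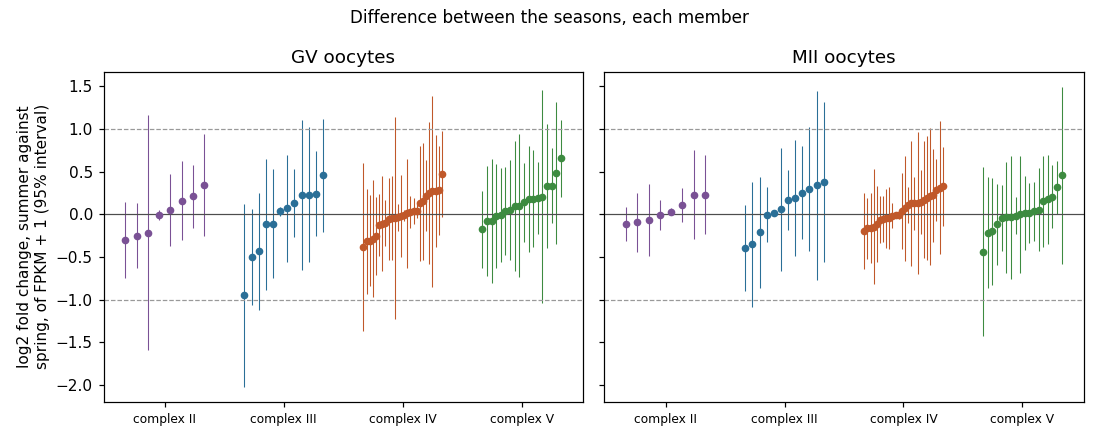
Log2 fold change of FPKM + 1 between summer and spring (y axis) of each member, ordered by value within its complex (x axis), with 95% intervals, GV oocytes on the left and MII oocytes on the right. The values lie between -0.95 and 0.66 in GV and between -0.44 and 0.46 in MII oocytes, and no member passes the dashed lines of a 2-fold change.

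The third comparison asked whether the change from GV to MII differed between summer and spring. None of the 64 members was called, against 0.21% of all genes. None passed a limit of 0.05 on the limma p, adjusted or not, where 1.8% of all genes passed it unadjusted. The 3 smallest p-values belonged to ATP5A1, with a difference of -0.60 on the log2 scale (95% interval -1.23 to 0.03), to COX7B at 0.64 (-0.09 to 1.38) and to COX16 at 0.57 (-0.19 to 1.33). ATP5A1 was at 8.20 ± 1.42, 13.8 ± 3.98, 12.8 ± 2.85 and 13.6 ± 4.41 FPKM in GV oocytes of spring and of summer and in MII oocytes of spring and of summer, so the GV oocytes of spring had the lowest mean. The change of ATP5G1 differed by -0.04 (-0.79 to 0.71) and that of UQCRH by -0.06 (-0.91 to 0.78). For 36 of the 64 members the interval of the difference lay within 2-fold either way, and for the other 28 a difference of that size lay within the interval.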

How the data were processed

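Poly(A) RNA of 24 oocyte libraries was sequenced as paired reads. Per the labels and the study's methods, the authors aligned trimmed reads to the bovine genome UMD3.1 with STAR 2.5.3a, used Partek, and deposited FPKM values per gene, 1 column a library. The annotation and the handling of reads shared between genes are not given in the sources used here. The deposit calls the table normalized counts and the methods name FPKM. The smallest step between low values differed 44.5-fold between the 10th and 90th percentile of genes, whereas counts scaled by library have 1 step for all genes. All columns have the same total, so the values were rescaled after FPKM were made. The lowest value is 0.01 FPKM in every column. The study reports an approximate number of reads per sample, and the relative depth given here was not taken from it. The distance between neighbouring low values gave the relative depth. Of 21694 low values held out from that estimate, 90.4% lay within 0.1 of a whole step, against 20% by chance. No columns were identical.

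Groups were taken from the labels. Genes over 0.1 FPKM in at least 1 library, 9526 of 11306, were fitted as log2(FPKM + 1) with limma 3.58.1 (lmFit, eBayes with trend) in R 4.3.3. Within a season or stage only the 2 groups compared entered, and all 4 entered for the difference between seasons. A gene was called at an unadjusted two-sided p under 0.05 and a fold over 2. The study set these thresholds on another test, the GSA algorithm of Partek Flow, so its counts of genes and those given here are not alike. Benjamini-Hochberg adjusted p-values were taken over all genes. Single members were also tested by two-sided exact permutation of the 12 libraries. The fit was tested on simulated data. Intervals are 95% intervals of the fit, and ratios are ratios of mean FPKM.

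Named with values were, per complex and stage comparison, the 3 members of smallest p in each direction, in the season comparisons the called members and the 3 of smallest p, the 2 most and 2 least abundant members of each complex, and all paralogous subunits; further members given as examples were chosen after their values were seen. Members and lists, with oocyte, cumulus and mitochondrial gene lists, were chosen with earlier results of these data known. The settings varied were the pseudocount (0.1), the filter (none, or a mean of at least 1 FPKM), the scaling (quantile normalization or median-of-ratios scaling), 1 fit of all groups, other thresholds, a replicate block, and leaving out libraries.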

Additional observations from a re-analysis of the deposited data

Results flagged for a closer look

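For 46 members and 5 summed levels, the highest and the lowest of the 6 libraries of each group were compared with the rest by the ratio of the gap to the range, at Dixon's 95% critical value. Of 204 groups 27 passed, where chance passes about 1 in 20, and 20 of the 27 lay in the 3 libraries of low relative depth.

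Summer GV replicate 2 held 11 of them. It was lowest for ATP5G1 at 69.6 FPKM, ATP5J2 at 16.3 FPKM, COX6A1 at 68.2 FPKM, COX6B1 at 107 FPKM, COX8A at 112 FPKM, SDHAF3 at 0.853 FPKM and UQCR10 at 19.8 FPKM, and for the sum of complex IV at 573 FPKM. It was highest for COA5 at 3.12 FPKM, COX10 at 0.105 FPKM and SDHA at 1.66 FPKM. In the other 5 libraries of the group ATP5G1 lay between 122 and 134 FPKM.

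Spring GV replicate 6 was lowest for COX14 at 9.14 FPKM and COX6B1 at 42.6 FPKM, and highest for COX10 at 0.136 FPKM, SDHA at 0.595 FPKM and UQCRC2 at 1.98 FPKM. Spring MII replicate 6 was lowest for ATP5G1 at 11.9 FPKM, COX11 at 0.308 FPKM, COX6B1 at 49.7 FPKM and SDHD at 0.567 FPKM. The part of depth in these values was not tested.

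Of the 7 in libraries of greater depth, spring GV replicate 1 was highest for UQCRQ at 499 FPKM, where the others lay between 242 and 271 FPKM, and for the sum of complex III at 842 FPKM. UQCC3 was highest in spring GV replicate 5 at 60.4 FPKM, UQCRC1 in spring GV replicate 2 at 4.54 FPKM and COX7B2 in spring MII replicate 3 at 0.114 FPKM. SDHAF2 was highest in summer MII replicate 1 at 4.96 FPKM and SDHAF3 in summer MII replicate 4 at 0.688 FPKM.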

How the results depend on the processing

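The number of members called between MII and GV oocytes, 24 in spring and 27 in summer, lay between 21 and 27 in spring and between 23 and 28 in summer when 1 library was left out, and was 27 and 30 with a pseudocount of 0.1, 21 and 23 with quantile normalization, 26 and 26 with median-of-ratios scaling, and 29 and 36 with an adjusted p under 0.05 and no limit on the fold. Over all 9526 genes tested, 1126 were called in spring and 1092 in summer. These numbers rose to 2628 and 2521 with the pseudocount of 0.1. They were 1213 and 1159 with quantile normalization and 1142 and 1103 with median-of-ratios scaling. With an adjusted p under 0.05 and no limit on the fold they were 2304 and 2929. The number called between summer and spring stayed at 0 in MII oocytes when 1 library was left out, as did that for the difference between seasons, and in GV oocytes it lay between 0 and 1. The 1 was CYC1, without spring GV replicate 1 or without summer GV replicate 3, and the cause was not tested. Of the log2 fold changes of the 64 members in all comparisons under the alternatives, 6953 kept their side of the call, 51 lost a call, 30 gained one and 0 reversed among those called, with ATP5E, ATP5I and COA6 among the members that gained one. The replicate numbers were not taken as pairing the samples, because not every same-numbered pair deviated together. The correlations averaged 0.162 between the stages in spring, 0.231 in summer, -0.00458 between the seasons in GV and 0.338 in MII oocytes, with lowest values of -0.169, -0.279, -0.322 and -0.441, and 4, 4, 1 and 8 of 12 libraries were closest to their own number. A replicate block left the counts at 24 and 27 between stages and at 0 between seasons. No member with a mean under 1 FPKM was called on the log2(FPKM + 1) scale. With a pseudocount of 0.1, SDHB and COA6, with means of 0.718 and 0.865 FPKM, were called lower in both seasons in the same libraries. A single read is worth most in the 3 shallow libraries, and the part of depth in the calls of scarce members was not tested.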
